A study of Mus musculus with 72 samples.

Results

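The serum amyloid A genes of the mouse, Saa1, Saa2, Saa3 and Saa4, were described in the livers of tumour-bearing mice. They were taken by gene symbol from a table of 20105 genes, in which each of the 4 symbols stood once, and all 4 passed the filter on low counts in both nuclear fractions. The table held 72 libraries of nuclear RNA from 36 mice, 2 from each mouse. All mice carried CAG-Sun1/sfGFP and Albumin-Cre (Hep-INTACT), so that the nuclear envelope tag is switched on in cells that express albumin, chiefly hepatocytes. Tagged nuclei bound to beads are called hepatocyte nuclei here, and the nuclei before that step whole liver nuclei. Livers were taken at zeitgeber time 9 h, and there were 9 groups of 4 mice in each fraction. The tumour groups of the cachexia cohorts were BALB/c mice with C26 tumours in cachexia, BALB/c mice with C26 tumours before cachexia, and C57BL/6N mice with 8025 tumours in cachexia, and the PBS mice of the C26 and 8025 cohorts were their controls. Cachexia meant a loss of over 10% of body weight. The tumour groups of the weight-stable cohorts were BALB/c mice with NC26 tumours and C57BL/6N mice with MC38 tumours, each with its own PBS mice. C26 and MC38 are mouse colon carcinoma lines. The age and sex of the mice are not given in the sources used here.

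Serum amyloid A proteins are small apolipoproteins that travel on high-density lipoprotein. In the acute phase response, interleukin-6 acting through STAT3 and interleukin-1 and tumour necrosis factor acting through NF-kB and C/EBP factors induce Saa1 and Saa2 in hepatocytes, and fragments of the protein form the deposits of AA amyloidosis. In mice Saa3 is known mainly from macrophages, fat and other tissues outside the hepatocyte, and Saa4 codes for the form that is made constitutively.

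The 4 genes lie together on chromosome 7 (mm10), within 42317 bases from the first to the last. Saa3 occupies chr7:46711998-46715676 on the minus strand, Saa4 chr7:46727999-46732543 on the minus strand, Saa1 chr7:46740499-46742980 on the minus strand and Saa2 chr7:46751833-46754314 on the plus strand. Saa1 and Saa2 are therefore divergent neighbours. The counted lengths of 2482 bases for Saa1, 2482 for Saa2, 3679 for Saa3 and 4545 for Saa4 equal the whole gene spans, introns included. The 250 bases before each RefSeq start (GRCm38.p6) are printed as a description, and a link between these sequences and the levels was not tested. The lines run 5′ to 3′ along the gene's strand, and capitals mark matches of the C/EBP motif TTGCNNAA on either strand. The intervals are chr7:46742981-46743230 for Saa1, chr7:46751583-46751832 for Saa2, chr7:46715677-46715926 for Saa3 and chr7:46732604-46732853 for Saa4, whose RefSeq start lies upstream of the gene end in the count table.
Saa1: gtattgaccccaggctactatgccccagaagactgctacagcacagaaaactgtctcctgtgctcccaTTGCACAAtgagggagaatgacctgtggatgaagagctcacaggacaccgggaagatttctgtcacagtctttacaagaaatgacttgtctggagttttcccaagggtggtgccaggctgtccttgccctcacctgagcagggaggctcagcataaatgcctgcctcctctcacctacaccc
Saa2: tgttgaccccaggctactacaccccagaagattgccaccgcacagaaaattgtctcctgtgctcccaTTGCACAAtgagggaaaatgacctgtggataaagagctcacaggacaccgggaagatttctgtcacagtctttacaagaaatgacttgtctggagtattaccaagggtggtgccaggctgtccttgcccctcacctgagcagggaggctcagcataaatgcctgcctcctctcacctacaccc
Saa3: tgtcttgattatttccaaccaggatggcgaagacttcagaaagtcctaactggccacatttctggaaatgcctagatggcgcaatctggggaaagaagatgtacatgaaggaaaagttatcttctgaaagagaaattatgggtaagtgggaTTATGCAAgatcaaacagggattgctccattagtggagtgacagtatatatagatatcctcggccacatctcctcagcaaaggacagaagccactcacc
Saa4: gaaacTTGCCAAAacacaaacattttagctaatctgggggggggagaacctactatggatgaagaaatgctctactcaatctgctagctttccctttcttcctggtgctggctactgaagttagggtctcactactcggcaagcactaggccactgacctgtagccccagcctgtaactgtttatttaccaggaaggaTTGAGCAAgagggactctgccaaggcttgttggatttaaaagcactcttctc
The upstream sequences of Saa1 and Saa2 were 94.8% identical over 251 aligned positions, and the other pairs among the 4 were 46.8% to 52.4% identical. The C/EBP match began 182 bases before the start in Saa1, 183 in Saa2, 99 in Saa3 (reverse strand), and 245 and 52 (reverse strand) in Saa4. Searched on both strands from 250 bases before to 50 after each start, this motif was found in 10.8% of the 32851 promoter windows of 300 bases in the RefSeq table. TATAAA (13.6% of windows), the STAT motif TTCNNNGAA (8.30%) and the NF-kB motif GGGNNTTTC (4.36%) were not found on either strand of the 4 Saa windows, which says only that these letters are not there. The longest annotated protein-coding transcripts of Saa1 (609 bases) and Saa2 (652 bases) were 87.3% identical and shared 51 stretches of 50 bases, 9.11% of those in Saa1 and 8.46% of those in Saa2, and neither shared any with Saa3 or Saa4. Reads were 50 bases at each end, and how reads that match both genes were counted is not given in the sources used here, so the split between Saa1 and Saa2 is uncertain to that extent. With both genes summed, the log2 fold change in hepatocyte nuclei was 5.37 in C26 cachexia and 7.76 in 8025 cachexia.

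The libraries held 8487495 to 56380860 counts in hepatocyte nuclei (median 26061579) and 12239096 to 30324405 counts in whole liver nuclei (median 20132695). Levels are given in CPM, counts scaled to the TMM-adjusted total of the library. Tests are edgeR quasi-likelihood tests on the counts over all genes that passed the filter, 13274 in hepatocyte and 13738 in whole liver nuclei, with Benjamini-Hochberg adjusted p, and a gene is called at an adjusted p under 0.05. The labels were checked against markers in the 16 PBS mice. Alb had 3971 ± 817 CPM in hepatocyte nuclei and 4345 ± 1271 CPM in whole liver nuclei (SD, n = 16 each). The Kupffer cell marker Clec4f had 5.04 ± 1.72 CPM in hepatocyte nuclei and 32.2 ± 4.77 CPM in whole liver nuclei, so this marker was depleted in the bead-bound fraction but not absent from it. The 5 genes with rRNA-like signal (Cmss1, Lars2, Cdk8, Camk1d and Gphn) took 0.944% to 8.31% of a library's counts. The library names number the cachexia cohorts and the weight-stable cohorts in separate runs, and a batch of libraries cannot be told apart from the kind of tumour. In these bulk libraries fewer cells of a type and less RNA per cell cannot be told apart either.

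Saa1 and Saa2, the acute phase forms, rose in both cachexia cohorts and in both fractions. Their mean level in cachexia was 265 to 837 CPM, against 1.08 to 9.26 CPM in the PBS mice of the same cohorts. In hepatocyte nuclei of C26 cachexia mice 1 to 4, Saa1 had 404, 335, 481 and 217 CPM, against 15.1, 12.2, 6.47 and 3.32 CPM in C26 PBS mice 1 to 4. The groups did not overlap, and the lowest cachexia mouse stood far above the highest PBS mouse. The log2 fold change (log2FC) was 5.28 (SE 0.89, adjusted p = 6.3e-05), a 38.8-fold rise. Saa2 had 374, 409, 523 and 259 CPM in the same cachexia mice, against 16.8, 8.79, 6.00 and 3.32 CPM in the PBS mice, a log2FC of 5.49 (SE 0.89, adjusted p = 4e-05). Of all genes tested in this comparison, 22.2% were called, 12.2% as higher and 10% as lower, so a call alone is common here, and the size of the change is what these values show.

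Whole liver nuclei of the same C26 cachexia mice held both genes at 589 CPM or more. Saa1 had 628, 589, 1042 and 601 CPM in C26 cachexia mice, against 4.86, 2.4, 1.95 and 9.68 CPM in C26 PBS mice. The log2 fold change was 7.25 (SE 0.72, adjusted p = 8.5e-09). Saa2 had 656, 701, 1307 and 683 CPM in cachexia mice, against 5.02, 1.55, 0.779 and 8.74 CPM in PBS mice, a log2FC of 7.71 (SE 0.80, adjusted p = 1.9e-08). Cachexia mouse 3 was the highest for both genes in both fractions, and its neighbours lay well below it in whole liver nuclei. PBS mouse 4 was the highest control in whole liver nuclei and the lowest in hepatocyte nuclei, and without it the whole liver fold changes were 7.85 for Saa1 and 8.38 for Saa2. Called genes made up 22.1% of those tested in whole liver nuclei, 11.8% as higher.

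The 8025 tumours in C57BL/6N mice gave cachexia levels of the same order. Saa1 in hepatocyte nuclei had 378, 362, 104 and 434 CPM in 8025 cachexia mice, against 0.618, 3.02, 1.62 and 1.51 CPM in 8025 PBS mice. Saa2 had 341, 332, 70.5 and 371 CPM in the cachexia mice, against 0.337, 2.65, 0.538 and 0.788 CPM in the PBS mice. Cachexia mouse 3 was the lowest for both genes in both fractions and still lay above every PBS mouse. The log2 fold change was 7.57 for Saa1 (SE 1.02, adjusted p = 1.8e-06) and 7.94 for Saa2 (SE 1.04, adjusted p = 1.3e-06). Without PBS mouse 2, the highest control, that of Saa2 was 9.06. Whole liver nuclei had 415, 348, 105 and 389 CPM of Saa1 in cachexia mice, against 2.61, 2.42, 2.28 and 5.18 CPM in PBS mice, a log2FC of 6.64 (SE 0.71, adjusted p = 1.2e-08). Saa2 had 375, 296, 66.6 and 322 CPM there in cachexia mice, against 2.68, 1.79, 1.99 and 2.44 CPM in PBS mice, a log2FC of 6.88 (SE 0.79, adjusted p = 4.5e-08). In this cohort 29.3% of genes were called in hepatocyte nuclei, 16.2% as higher, and 36.6% in whole liver nuclei, 18.7% as higher and 17.9% as lower.

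**Figure D1:**
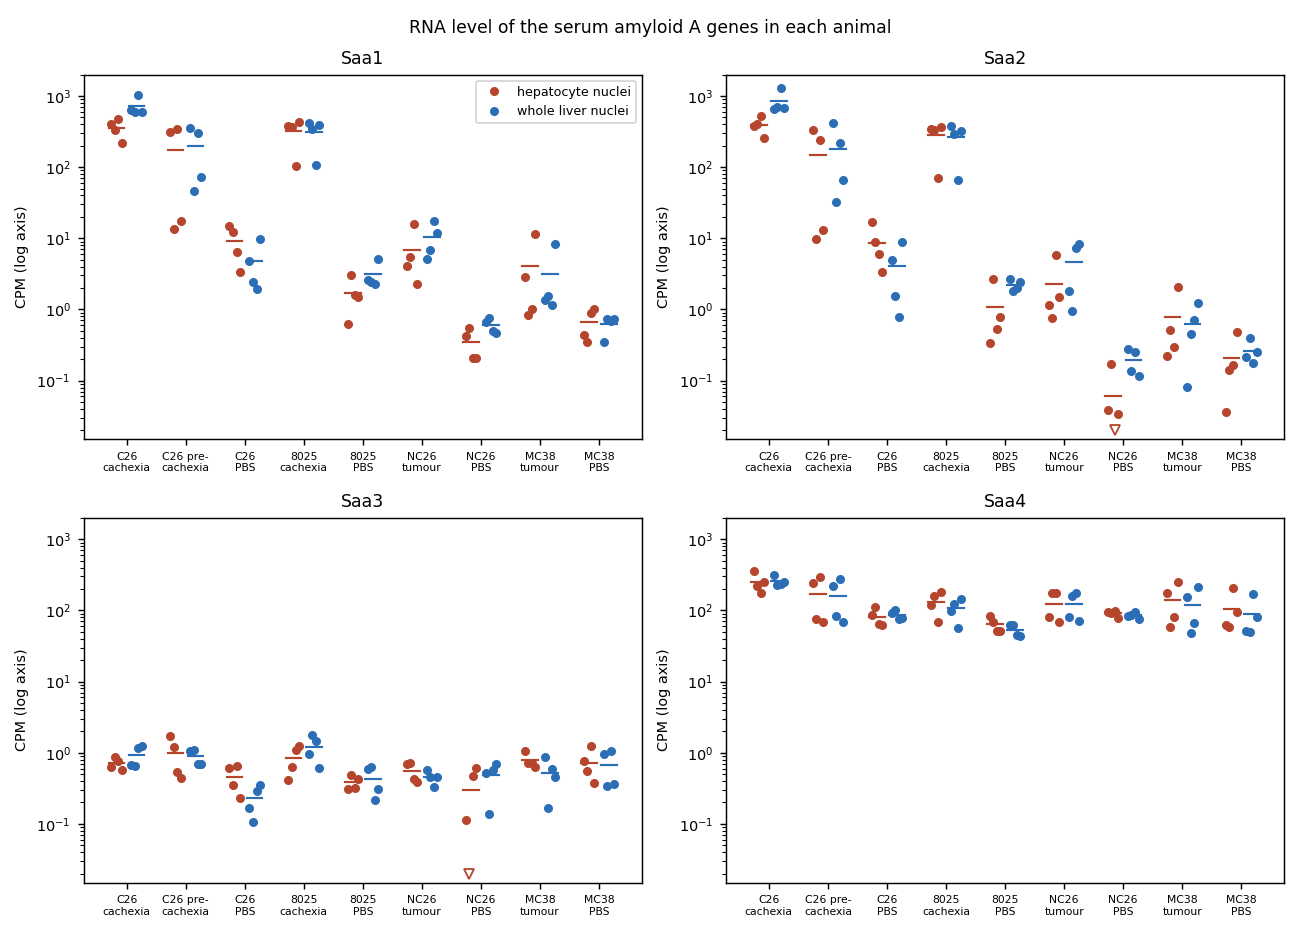
Level of each Saa gene (CPM, log axis) in each of the 72 libraries, by group, with hepatocyte nuclei and whole liver nuclei side by side. Points are mice, bars are group means and open triangles mark a count of 0; Saa1 and Saa2 of both cachexia groups stand at 66.6 CPM or above, while Saa3 stays at 1.75 CPM or below in every library.

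The cachexia effects of the 2 tumours were compared directly. In hepatocyte nuclei the C26 effect minus the 8025 effect was −2.30 for Saa1 on the log2 scale (SE 1.14, adjusted p = 0.36) and −2.45 for Saa2 (SE 1.17, adjusted p = 0.34). The Saa2 difference was −3.59 without 8025 PBS mouse 2 and −1.93 without C26 PBS mouse 1. The whole liver values were 0.62 for Saa1 and 0.83 for Saa2, with adjusted p of 0.73 and 0.67. None of these differences was called, among 0.957% of genes called in hepatocyte and 6.57% in whole liver nuclei. The PBS levels that enter these differences were not alike: Saa1 averaged 9.26 ± 5.34 CPM in C26 PBS mice and 1.69 ± 0.990 CPM in 8025 PBS mice in hepatocyte nuclei (SD, n = 4 each).

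Before cachexia, C26 mice fell into high and low animals for Saa1 and Saa2. In hepatocyte nuclei Saa1 had 317, 13.6, 339 and 17.6 CPM in pre-cachexia mice 1 to 4, against 15.1, 12.2, 6.47 and 3.32 CPM in C26 PBS mice. Saa2 had 328, 9.74, 243 and 12.9 CPM in the pre-cachexia mice, against 16.8, 8.79, 6.00 and 3.32 CPM in the PBS mice. Mice 1 and 3 were within the range of the cachexia group for Saa1, and mice 2 and 4 were near the PBS group, whose values overlapped theirs. Saa1 rose by a log2FC of 4.21 (SE 0.85, adjusted p = 0.0027) and Saa2 by 4.09 (SE 0.84, adjusted p = 0.0031), with 7.72% of genes called and 4.78% as higher. Without mouse 1 the fold change of Saa2 was 3.34 on the log2 scale.

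The same mice were high and low in whole liver nuclei, but there none reached down to the controls. Saa1 had 360.0, 46.1, 307 and 72.6 CPM in pre-cachexia mice, against 4.86, 2.4, 1.95 and 9.68 CPM in PBS mice. Saa2 had 412, 32.5, 219 and 65.3 CPM in pre-cachexia mice, against 5.02, 1.55, 0.779 and 8.74 CPM in PBS mice. The log2 fold change was 5.39 for Saa1 (SE 0.66, adjusted p = 4.2e-06) and 5.51 for Saa2 (SE 0.73, adjusted p = 1.1e-05), among 12.8% of genes called, 8.72% as higher and 4.04% as lower. Without C26 PBS mouse 4 these were 5.98 and 6.18, and without pre-cachexia mouse 1 that of Saa2 was 4.68.

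Cachexia was then set against pre-cachexia within the C26 cohort. In whole liver nuclei the groups did not overlap, and Saa1 was higher in cachexia by 1.86 on the log2 scale (SE 0.55, adjusted p = 0.024) and Saa2 by 2.20 (SE 0.61, adjusted p = 0.016), among 11.6% of genes called and 4.68% as higher. Both calls were lost without single mice. Without cachexia mouse 3, pre-cachexia mouse 2 or pre-cachexia mouse 4, Saa1 was at 1.65, 1.58 and 1.59 with adjusted p of 0.0709, 0.0924 and 0.0965. For Saa2 the same 3 omissions gave 1.92, 1.89 and 1.92 with adjusted p of 0.0534, 0.0624 and 0.0676, while 3.03 was found without pre-cachexia mouse 1. In a fit of the cohort's own libraries alone neither was called, with adjusted p of 0.0585 for Saa1 and 0.063 for Saa2. In hepatocyte nuclei the groups overlapped, and the differences of 1.07 for Saa1 (SE 0.74, adjusted p = 0.43) and 1.40 for Saa2 (SE 0.74, adjusted p = 0.27) were not called, where 9.09% of genes were called, 4.81% as higher.

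The weight-stable NC26 tumours went with smaller levels of both genes that were nevertheless above those of their own controls. In hepatocyte nuclei Saa1 had 4.02, 5.39, 15.6 and 2.31 CPM in NC26 tumour mice, against 0.422, 0.550, 0.207 and 0.205 CPM in NC26 PBS mice. The groups did not overlap. The log2FC of 4.30 (SE 1.05, adjusted p = 0.067) missed the threshold in edgeR, and 0.324% of genes were called, 0.316% as higher and 0.00753% as lower. It passed in DESeq2 (adjusted p = 2.23e-04), in a fit of the cohort's own libraries (adjusted p = 0.0345) and without tumour mouse 2 (adjusted p = 0.0488). Saa2 had 1.14, 0.759, 5.79 and 1.47 CPM in the tumour mice, against 0.0383, 0.169, 0 and 0.0342 CPM in the PBS mice, whose 4 libraries held 6 counts in all (log2 fold change 5.16, SE 1.46, adjusted p = 0.13). DESeq2 called it (adjusted p = 3.56e-04), and in edgeR the fold change was 6.23 without PBS mouse 2 and 4.075 without tumour mouse 3, called in neither.

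Both genes were called in whole liver nuclei of the NC26 cohort, where 0.728% of all genes were called and 0.706% as higher. Saa1 had 5.05, 6.85, 17.5 and 12.0 CPM in NC26 tumour mice, against 0.661, 0.749, 0.503 and 0.470 CPM in PBS mice, a log2FC of 4.08 (SE 0.72, adjusted p = 0.0034). Saa2 had 1.80, 0.964, 7.28 and 8.33 CPM in the tumour mice, against 0.278, 0.136, 0.251 and 0.117 CPM in the PBS mice. Its log2 fold change was 4.56 (SE 0.95, adjusted p = 0.013), and the 4 PBS libraries held 19 counts of it in all. The Saa2 call was lost without PBS mouse 1 (4.83, adjusted p = 0.0644), PBS mouse 2 (4.40, 0.0738), PBS mouse 4 (4.38, 0.0532) or tumour mouse 4 (4.11, 0.0523).

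MC38 tumours gave the smallest fold changes of Saa1 and Saa2 among the 5 tumour groups. In hepatocyte nuclei Saa1 had 2.87, 0.848, 1.01 and 11.5 CPM in MC38 tumour mice, against 0.432, 0.348, 0.898 and 1.02 CPM in MC38 PBS mice. Whole liver nuclei had 1.37, 1.56, 1.17 and 8.41 CPM of it in tumour mice, against 0.345, 0.738, 0.699 and 0.724 CPM in PBS mice. Mouse 4 was the highest tumour mouse in both fractions, and the groups overlapped in hepatocyte nuclei but not in whole liver nuclei. The log2FC values of 2.66 (SE 0.97, adjusted p = 0.85) and 2.37 (SE 0.74, adjusted p = 0.49) were not called. Without tumour mouse 4 they were 1.26 in hepatocyte and 1.11 in whole liver nuclei. No gene was called in this cohort by edgeR, a share of 0%, with 572 genes at an unadjusted p under 0.05 in hepatocyte and 790 in whole liver nuclei, and DESeq2 called 6 higher in hepatocyte nuclei and 13 higher and 1 lower in whole liver nuclei. Saa2 was at or below 2.09 CPM in every MC38 library.

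Whether the cachexia tumours moved these genes more than the weight-stable tumours of the same strain was tested as a difference of effects. In C57BL/6N mice the 8025 effect exceeded the MC38 effect for Saa1 by 4.91 on the log2 scale in hepatocyte nuclei (SE 1.37, adjusted p = 0.025) and by 4.27 in whole liver nuclei (SE 1.03, adjusted p = 0.0055). For Saa2 the difference was 5.82 in hepatocyte nuclei (SE 2.11, adjusted p = 0.087; DESeq2 adjusted p = 1.87e-04) and 5.48 in whole liver nuclei (SE 1.57, adjusted p = 0.019). Such differences were called for 7.21% of genes in hepatocyte nuclei (4.19% positive and 3.02% negative) and 13.5% in whole liver nuclei. The Saa1 call in hepatocyte nuclei was lost without 8025 PBS mouse 1 (4.56, adjusted p = 0.0527), MC38 PBS mouse 3 (4.71, 0.0703) or MC38 PBS mouse 4 (4.68, 0.0555), and the Saa2 call in whole liver nuclei without MC38 PBS mouse 2 (5.27, 0.0566). Without MC38 tumour mouse 4 the differences of Saa1 were 6.32 in hepatocyte and 5.55 in whole liver nuclei, that of Saa2 in whole liver nuclei was 6.07, and that of Saa2 in hepatocyte nuclei was called (7.06, 0.0494).

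In BALB/c mice the corresponding differences were not called in edgeR. The C26 cachexia effect minus the NC26 effect was 0.98 for Saa1 (SE 1.41, adjusted p = 0.82) and 0.34 for Saa2 (SE 3.39, adjusted p = 0.98) in hepatocyte nuclei, where 1.89% of genes were called. It was 3.17 for Saa1 (SE 0.98, adjusted p = 0.066) and 3.15 for Saa2 (SE 1.50, adjusted p = 0.29) in whole liver nuclei, where 3.4% were called. The SE of 3.39 was worked back from F and is not a sure measure of precision. NC26 PBS mice held 6 counts of Saa2 in all in hepatocyte nuclei, and omission of single mice gave −0.75 to 1.40 there. DESeq2 called the whole liver difference of Saa1 (adjusted p = 0.0123), as did edgeR without C26 PBS mouse 4 (3.77, 0.0353) or NC26 tumour mouse 3 (3.55, 0.046). The small difference in hepatocyte nuclei stands beside unequal controls: Saa1 averaged 9.26 ± 5.34 CPM in C26 PBS mice and 0.346 ± 0.17 CPM in NC26 PBS mice (SD, n = 4 each), while the tumour mice averaged 359 ± 112 CPM with C26 cachexia and 6.84 ± 6.00 CPM with NC26 tumours. For pre-cachexia against NC26 the differences of Saa1 and Saa2 lay between −1.07 and 1.31 and were not called, in comparisons where edgeR called 0% of genes and 647 genes in hepatocyte and 568 in whole liver nuclei had an unadjusted p under 0.05.

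**Figure D2:**
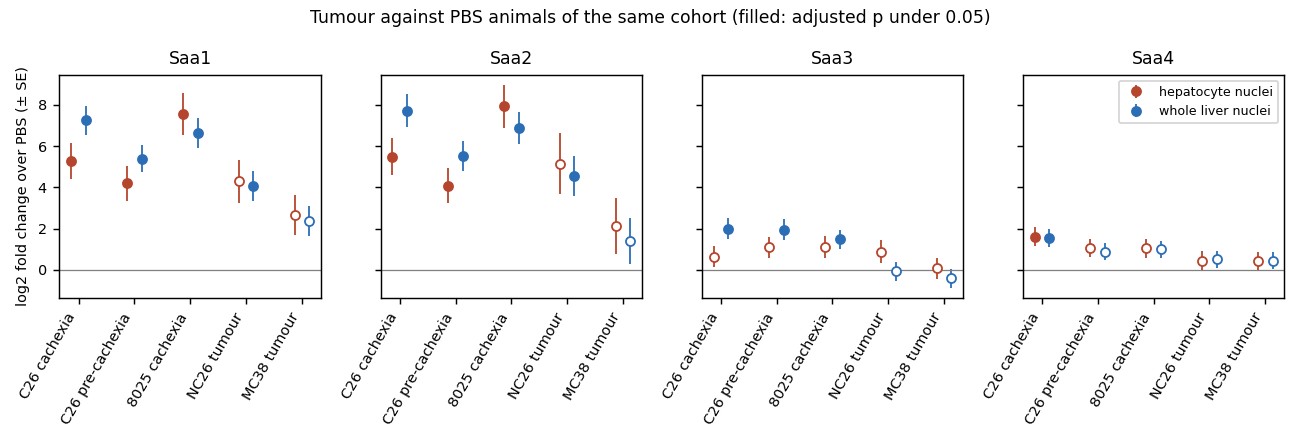
Log2 fold change of each tumour group over the PBS mice of its cohort for Saa1, Saa2, Saa3 and Saa4, in hepatocyte nuclei and whole liver nuclei, with bars of 1 SE worked back from the edgeR F test. Filled symbols mark an adjusted p under 0.05; Saa1 and Saa2 reach 7.57 and 7.94 in 8025 cachexia, while Saa3 and Saa4 stay below 2 in every group.

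The PBS groups of one strain were compared between cohorts, a comparison chosen after the values had been seen. In whole liver nuclei Saa1 was higher in C26 PBS mice than in NC26 PBS mice by 2.93 on the log2 scale (SE 0.73, adjusted p = 0.013) and Saa2 by 4.34 (SE 0.96, adjusted p = 0.0059), where 10.9% of genes were called. The Saa1 call was lost without C26 PBS mouse 4 (2.34, adjusted p = 0.0532), and without the same mouse Saa2 was at 3.67. In hepatocyte nuclei the differences of 4.72 (SE 1.05, adjusted p = 0.15) and 7.05 (SE 1.34, adjusted p = 0.078) were not called by edgeR, which called 0% of genes there with 1208 at an unadjusted p under 0.05, and DESeq2 called 19 genes higher and 5 lower, with Saa1 (adjusted p = 4.75e-05) and Saa2 (adjusted p = 9.01e-08) among them. Between 8025 and MC38 PBS mice the hepatocyte differences of 1.36 and 2.58 were not called, where 0.00753% of genes were, and the whole liver differences were 2.32 for Saa1 (adjusted p = 0.11) and 3.10 for Saa2 (adjusted p = 0.11), in a comparison with 0.466% of genes called. Between strains, with both PBS cohorts of each averaged, no Saa gene was called: Saa1 differed by 0.79 and 0.26 (BALB/c minus C57BL/6N) in hepatocyte and whole liver nuclei, where 41.2% and 39.6% of genes were called. The sign for Saa1, Saa2 and Saa4 turned when the NC26 and MC38 cohorts were used alone, to −0.89 for Saa1 in hepatocyte nuclei, whereas the C26 and 8025 cohorts alone gave 2.47 for Saa1 (adjusted p = 0.0443) and 2.94 for Saa2 (adjusted p = 0.0207) there.

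Saa4, the constitutive form, was present in every library and spanned 43.0 to 361 CPM, a narrow range beside the 0.205 to 1042 CPM of Saa1. It rose in C26 cachexia in both fractions. Hepatocyte nuclei had 361, 222, 173 and 247 CPM of Saa4 in C26 cachexia mice, against 86.0, 113, 64.2 and 63.0 CPM in C26 PBS mice, a log2FC of 1.62 (SE 0.46, adjusted p = 0.011). Whole liver nuclei had 312, 225, 237 and 248 CPM in cachexia mice, against 90.7, 102, 76.0 and 79.3 CPM in PBS mice, a log2FC of 1.55 (SE 0.42, adjusted p = 0.0077). The groups did not overlap in either fraction. Of all genes in this comparison, 22.2% were called in hepatocyte and 22.1% in whole liver nuclei.

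In pre-cachexia Saa4 split in the same way as Saa1. Hepatocyte nuclei of pre-cachexia mice 1 and 3 had 246 and 291 CPM and those of mice 2 and 4 had 76.7 and 67.9 CPM, against 63.0 to 113 CPM in C26 PBS mice. The log2FC values of 1.06 in hepatocyte nuclei (SE 0.45, adjusted p = 0.15) and 0.89 in whole liver nuclei (SE 0.42, adjusted p = 0.16) were not called. In the 8025 cohort Saa4 had 118, 158, 69.5 and 184 CPM in hepatocyte nuclei of cachexia mice, against 82.2, 68.9, 51.9 and 51.6 CPM in PBS mice, and cachexia mouse 3, the lowest for Saa1, was again the lowest. The log2FC values of 1.05 (SE 0.45, adjusted p = 0.080) and 1.0 in whole liver nuclei (SE 0.42, adjusted p = 0.061) missed the threshold. They passed in DESeq2 (adjusted p = 0.0464 and 0.0358) and in a fit of the cohort's own libraries (0.0233 and 0.0193), and the whole liver value passed without cachexia mouse 3 (1.23, 0.0325).

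In the weight-stable cohorts Saa4 overlapped its controls. NC26 tumour mice had 82.1, 174, 173 and 68.5 CPM in hepatocyte nuclei, against 93.6, 92.0, 98.1 and 78.7 CPM in NC26 PBS mice, and MC38 tumour mice had 177, 59.4, 80.2 and 248 CPM, against 61.5, 57.9, 208 and 95.3 CPM in MC38 PBS mice. The log2FC values of 0.46 and 0.42 were not called, and whole liver nuclei gave 0.51 and 0.45. MC38 PBS mouse 3 was far above its group in both fractions, with 172 CPM in whole liver nuclei, while its Saa1 stood at 0.898 and 0.699 CPM. No difference between tumour effects was called for Saa4: C26 minus NC26 was 1.16 and 1.04, and 8025 minus MC38 was 0.64 and 0.55, in hepatocyte and whole liver nuclei.

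Saa3 had the lowest mean per kb of the 4 genes in every group of both cachexia cohorts and rested on 0 to 72 counts per library. It was called in 3 tumour groups in whole liver nuclei. Of all genes there, 22.1% were called in C26 cachexia, 12.8% in pre-cachexia and 36.6% in 8025 cachexia. There it had 0.676, 0.645, 1.18 and 1.244 CPM in C26 cachexia mice, against 0.166, 0.107, 0.292 and 0.352 CPM in C26 PBS mice, a log2FC of 1.99 (SE 0.50, adjusted p = 0.0042). Pre-cachexia mice had 1.06, 1.10, 0.695 and 0.697 CPM of Saa3, with no overlap with the PBS mice and without the split seen for Saa1, a log2FC of 1.95 (SE 0.50, adjusted p = 0.0092). 8025 cachexia mice had 0.952, 1.75, 1.45 and 0.603 CPM, against 0.588, 0.624, 0.214 and 0.305 CPM in 8025 PBS mice, which overlapped by 1 mouse, and the log2 fold change was 1.48 (SE 0.47, adjusted p = 0.014).

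In hepatocyte nuclei Saa3 had 0.639, 0.870, 0.756 and 0.567 CPM in C26 cachexia mice, against 0.606, 0.350, 0.643 and 0.231 CPM in C26 PBS mice, and the groups overlapped. The log2 fold changes were 0.64 in C26 cachexia (SE 0.52, adjusted p = 0.40), 1.11 in pre-cachexia (SE 0.51, adjusted p = 0.18) and 1.11 in 8025 cachexia (SE 0.55, adjusted p = 0.13). The tumour effect in hepatocyte nuclei minus that in whole liver nuclei was −1.37 for Saa3 in C26 cachexia (SE 0.74, adjusted p = 1), so that a difference between fractions was not shown. With NC26 tumours the Saa3 fold changes were 0.89 in hepatocyte and −0.06 in whole liver nuclei, and with MC38 tumours 0.08 and −0.41, and none was called. The whole liver difference of the 8025 and MC38 effects on Saa3 was 1.89 (SE 0.66, adjusted p = 0.052), and DESeq2 called it (adjusted p = 0.0367), as did edgeR without any 1 of 5 mice, namely 8025 cachexia mouse 4, 8025 PBS mouse 2, MC38 PBS mice 2 and 4 and MC38 tumour mouse 1.

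Markers of some other cell types moved with the cachexia groups, and their values stand beside all of these results. The summed level of the 10 macrophage markers in whole liver nuclei was 214 to 382 CPM in C26 cachexia mice, 327 to 427 CPM in pre-cachexia mice and 154 to 195 CPM in C26 PBS mice, and 419 to 657 CPM in 8025 cachexia mice against 167 to 204 CPM in 8025 PBS mice. Of these 10, 5 were called higher in C26 cachexia, 8 in pre-cachexia and 9 in 8025 cachexia, where 11.8%, 8.72% and 18.7% of all genes were called higher. In hepatocyte nuclei the same sum was 41.3 to 67.8 CPM in C26 cachexia mice, 51.3 to 66.6 CPM in pre-cachexia mice and 23.5 to 41.8 CPM in C26 PBS mice, and 80.7 to 108 CPM in 8025 cachexia mice against 28.1 to 32.1 CPM in 8025 PBS mice. There 5, 7 and 8 of 10 were called higher, where 12.2%, 4.78% and 16.2% of all genes were.

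The 10 neutrophil markers summed to 9.41 to 13.0 CPM in C26 cachexia mice against 4.69 to 5.70 CPM in PBS mice, and to 43.9 to 66.1 CPM in 8025 cachexia mice against 3.46 to 6.71 CPM in PBS mice, in whole liver nuclei. Only 5 of the 10 passed the filter there. All 5 were called higher in both cohorts, where 11.8% and 18.7% of all genes were. A gene near 0 in PBS mice can pass that filter through the cachexia group alone, so this count says little by itself. In hepatocyte nuclei the sum was 1.38 to 2.76 CPM in C26 cachexia mice against 0.501 to 1.49 CPM in PBS mice and 7.28 to 10.4 CPM in 8025 cachexia mice against 0.590 to 1.21 CPM in PBS mice. In that fraction Csf3r, the receptor of granulocyte colony-stimulating factor, was the 1 member tested. It was at a count of 0 in no library and rose by a log2FC of 1.11 in C26 cachexia (adjusted p = 0.033) and 2.94 in 8025 cachexia (adjusted p = 1.5e-06). The other 9 members were at a count of 0 in 16 to 34 of the 36 hepatocyte libraries, S100a8 in 24, Ngp in 31 and Camp in 34.

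The counts in this paragraph stand beside these shares of all genes called higher. In C26 cachexia they were 12.2% in hepatocyte and 11.8% in whole liver nuclei, and in 8025 cachexia 16.2% and 18.7%. The 6 monocyte markers summed to 40.1 to 68.6 CPM in 8025 cachexia mice against 4.99 to 7.19 CPM in 8025 PBS mice in whole liver nuclei, with 4 of 4 tested members called higher (median log2FC 3.44), and to 6.20 to 9.61 CPM in cachexia mice against 0.861 to 1.70 CPM in PBS mice in hepatocyte nuclei, with 3 of 4 called. Here too a marker near 0 in PBS mice can pass the filter through the cachexia group alone. In the C26 cohort the monocyte sums of cachexia and PBS mice overlapped in both fractions, and 2 of 4 were called higher in each. Cholangiocyte markers summed to 14.6 to 65.3 CPM in 8025 cachexia mice against 6.98 to 10.5 CPM in PBS mice in whole liver nuclei and to 8.90 to 38.5 CPM in cachexia mice against 3.296 to 5.57 CPM in PBS mice in hepatocyte nuclei, with 4 of 5 called higher in each. In C26 cachexia 0 of 5 were called in whole liver nuclei and 1 of 5 in hepatocyte nuclei (8.28 to 13.0 CPM in cachexia mice against 5.03 to 7.25 CPM in PBS mice). Endothelial markers summed to 189 to 281 CPM in C26 cachexia mice against 111 to 172 CPM in C26 PBS mice in hepatocyte nuclei, with 1 of 6 called higher, and to 885 to 1019 CPM in cachexia mice against 712 to 806 CPM in PBS mice in whole liver nuclei, with 2 of 6 called higher. Stab2 made up most of these sums, with 75.5 CPM in hepatocyte and 477 CPM in whole liver nuclei of the 16 PBS mice. The median log2FC of the 6 markers was 0.14 and −0.11, so the list as a whole did not share the rise of the sum. In 8025 cachexia 1 of 6 endothelial markers was called higher in hepatocyte and 3 of 6 in whole liver nuclei (median log2FC 0.70 and 0.51). The 1 of 6 in hepatocyte nuclei is near the 16.2% of all genes.

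Stellate cell and fibroblast markers summed to 37.4 to 57.7 CPM in 8025 cachexia mice against 74.1 to 99.6 CPM in PBS mice in hepatocyte nuclei, where 2 of 6 were called higher and 1 lower. Of all genes there, 16.2% were called higher and 13.1% lower. The median log2FC of the 6 was 0.36, against the fall of the sum. Reln made up most of that sum, with 58.0 CPM in hepatocyte nuclei of the 16 PBS mice. The 6 hepatocyte markers summed to 8372 to 12387 CPM in 8025 cachexia mice against 12023 to 19223 CPM in PBS mice in whole liver nuclei, with 1 called lower, near the 17.9% of all genes called lower there. No B cell, T cell or NK cell marker passed the filter in hepatocyte nuclei. The part of any of these cells in the Saa changes was not tested.

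Both libraries of a mouse were then set side by side for each gene. Saa1 was higher in hepatocyte nuclei than in whole liver nuclei in 12 of 36 mice, Saa2 in 13, Saa3 in 19 and Saa4 in 26. Log2 CPM with a prior count of 2, which shrinks differences at low counts, was subtracted, hepatocyte minus whole liver. This difference ran from −2.34 to 2.29 for Saa1 and from −2.75 to 2.79 for Saa2. It ran from −1.69 to 1.59 for Saa3 and only from −0.45 to 0.40 for Saa4. The fitted difference of Saa1 over the 16 PBS mice, −0.03, averaged C26 PBS mice 1 to 3 at 1.61 to 2.29 and C26 PBS mouse 4 at −1.53 with 8025 PBS mice at −1.97 to 0.30, NC26 PBS mice at −1.08 to −0.43 and MC38 PBS mice at −0.98 to 0.41. In a fit of all 72 libraries without the mouse as a term, no Saa gene differed between fractions, although 50.9% of all genes did in the PBS mice and 19% to 37% in the tumour groups. With the mouse as a block, which ties both libraries of a mouse, Saa4 was higher in hepatocyte nuclei by 0.26 in PBS mice on the log2 scale (adjusted p = 2.06e-07), by 0.26 in pre-cachexia (adjusted p = 0.00225), by 0.46 in 8025 cachexia (adjusted p = 2.37e-06), by 0.19 with NC26 tumours (adjusted p = 0.0262) and by 0.34 with MC38 tumours (adjusted p = 2.4e-04). In C26 cachexia the value for Saa4 was 0.12 and was not called. The blocked fit called 69.6% of all genes in PBS mice and 38.9% to 59.1% in the tumour groups, so most genes were called in every one of these groups other than MC38.

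Saa1 and Saa2 went the other way in the C26 tumour groups in the blocked fit, though not in most C26 PBS mice. NC26 tumour mice 1 to 4 were lower in hepatocyte nuclei too, at −0.33, −0.35, −0.16 and −2.34 for Saa1. Their values for Saa2 were −0.65, −0.34, −0.33 and −2.44. The blocked difference of Saa1 with NC26 tumours was −0.51 and was not called (adjusted p = 0.283). In C26 cachexia Saa1 was lower in hepatocyte nuclei than in whole liver nuclei by a log2 difference of −0.83 (adjusted p = 0.0181) and Saa2 by −0.90 (adjusted p = 0.0127), against −0.81 and −0.92 without the block, with adjusted p of 0.39 and 0.35. In pre-cachexia Saa2 differed by −0.76 (adjusted p = 0.0442) and Saa1 by −0.68 (adjusted p = 0.0631), against 0.03 for Saa1 without the block. The cachexia effect on Saa2 was smaller in hepatocyte nuclei than in whole liver nuclei by −2.29 in the blocked fit (adjusted p = 0.0384), where 0.441% of genes were called, and that on Saa1 by −2.02 (adjusted p = 0.0643). These differences hold the PBS mice as well, and in C26 PBS mice 1 to 3 hepatocyte nuclei were the higher fraction, by 1.61, 2.29 and 1.68 for Saa1 and 1.72, 2.43 and 2.79 for Saa2, while mouse 4 was at −1.53 and −1.38. Without the block these were −2.24 and −1.99, in a fit where edgeR called 0% of genes with 295 at an unadjusted p under 0.05, and DESeq2 called 1. Without C26 PBS mouse 4 the values without the block were −3.205 for Saa2 and −2.88 for Saa1.

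**Figure D3:**
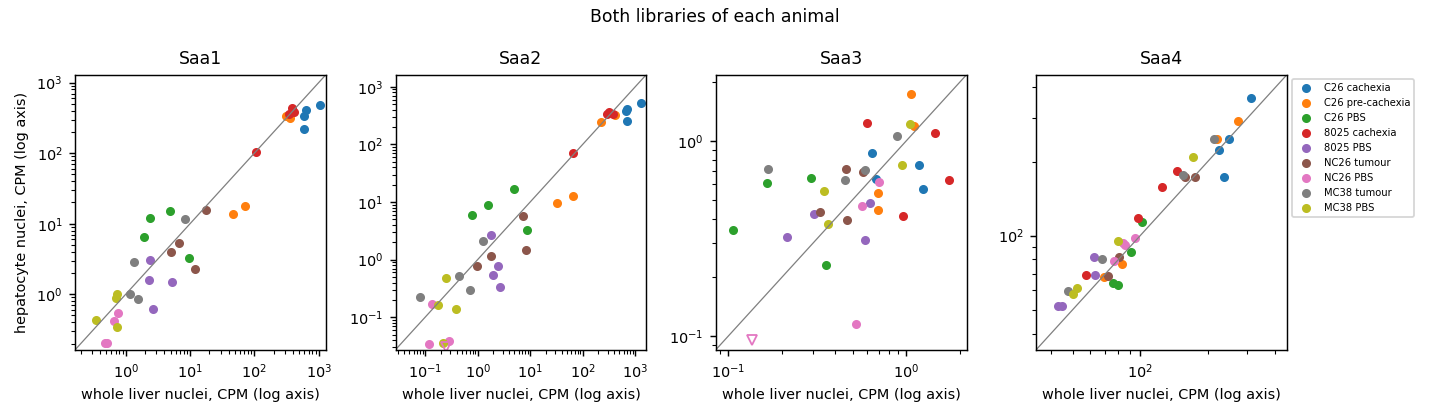
Level in hepatocyte nuclei (y axis, CPM, log scale) against level in whole liver nuclei (x axis, CPM, log scale) of the same mouse for each Saa gene, 36 mice a panel, with the line of equal level and open triangles for a count of 0 in hepatocyte nuclei. Saa4 keeps to the line (difference in log2 CPM with a prior count of 2, −0.45 to 0.40). By the same measure Saa1 and Saa2 scatter around it by up to 2.34 and 2.79.

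Levels were compared between the 4 genes per kilobase of counted length. In hepatocyte nuclei of C26 cachexia mice the group means were 145 CPM per kb for Saa1, 158 for Saa2, 0.192 for Saa3 and 55.2 for Saa4, and in C26 PBS mice they were 3.73, 3.51, 0.124 and 17.95 CPM per kb. In 8025 cachexia mice they were 129, 112, 0.229 and 29.1 CPM per kb, and in 8025 PBS mice 0.681, 0.435, 0.105 and 14.0 CPM per kb. Saa4 was thus the leading member in the controls and Saa1 or Saa2 the leading member in cachexia. Saa1 stood above Saa4 per kb in 4 of 4 mice of each cachexia group in both fractions, in 2 of 4 pre-cachexia mice in hepatocyte nuclei and 4 of 4 in whole liver nuclei, and in 0 mice of the PBS, NC26 and MC38 groups.

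The ratio of 2 members within a library needs no scaling, and 36 such contrasts were tested by an exact two-sided permutation test of 4 against 4 mice. The smallest p this design allows is 0.0286, which became 0.0571 after adjustment over the 36 contrasts, so no ratio passed 0.05. The log2 ratio of Saa4 to Saa1 was lower in tumour mice than in PBS mice by a difference of −3.83 in C26 cachexia, −6.56 in 8025 cachexia, −2.35 in pre-cachexia, −3.64 with NC26 tumours and −1.50 with MC38 tumours in hepatocyte nuclei, each at that smallest exact p. In whole liver nuclei it was −5.93 in C26 cachexia, −5.60 in 8025 cachexia, −4.51 in pre-cachexia and −3.52 with NC26 tumours, each again at that smallest p, and −1.42 with MC38 tumours. For Saa2 to Saa1 the log2 ratio in hepatocyte nuclei differed by 0.25 in C26 cachexia (exact p = 0.2286), 0.59 in 8025 cachexia, −0.24 in pre-cachexia, 0.78 with NC26 tumours and −0.20 with MC38 tumours. The whole liver values were 0.71 in C26 cachexia (exact p = 0.0286), 0.08 in 8025 cachexia, 0.27 in pre-cachexia, 0.05 with NC26 tumours and −0.97 with MC38 tumours. In both cachexia groups the ratio of Saa2 to Saa1 thus moved less than that of Saa4 to Saa1, while with MC38 tumours in whole liver nuclei the sizes were closer, −0.97 and −1.42.

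Saa2 gave 52.4% ± 3.12 of the summed Saa1 and Saa2 counts in hepatocyte nuclei of C26 cachexia mice and 48.2% ± 4.53 in C26 PBS mice, and 45.4% ± 3.50 in 8025 cachexia mice and 35.3% ± 8.94 in 8025 PBS mice. In the cohorts with low counts it was 25.1% ± 11.1 in NC26 tumour mice and 11.5% ± 9.91 in NC26 PBS mice, and 20.7% ± 12.9 in MC38 tumour mice and 20.9% ± 11.4 in MC38 PBS mice (SD, n = 4 each). Saa2 exceeded Saa1 in 3 of 4 C26 cachexia mice in hepatocyte nuclei and in 4 of 4 in whole liver nuclei, and in 0 of 4 8025 cachexia mice in both.

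**Figure D4:**
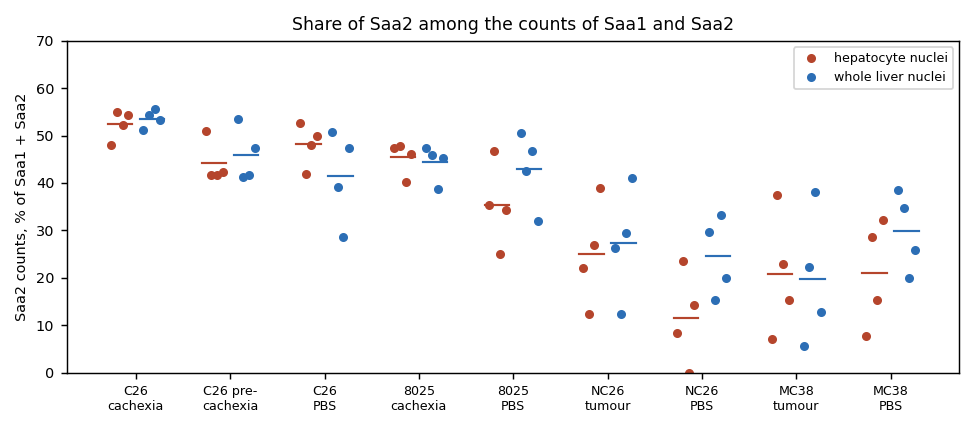
Share of Saa2 in the summed counts of Saa1 and Saa2 (percent) for each mouse, by group, in hepatocyte nuclei and whole liver nuclei, with the group mean as a bar. C26 cachexia mice lie at 48.1% to 55.0% and 8025 cachexia mice at 40.3% to 47.9% in hepatocyte nuclei, and groups with few counts spread more widely.

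The order of the groups was read from their means. For Saa1 in hepatocyte nuclei it ran from C26 cachexia (359 ± 112 CPM, SD, n = 4) through 8025 cachexia (319 ± 147), pre-cachexia (172 ± 180), C26 PBS (9.26 ± 5.34), NC26 tumours (6.84 ± 6.00), MC38 tumours (4.06 ± 5.06), 8025 PBS (1.69 ± 0.990) and MC38 PBS (0.673 ± 0.332) to NC26 PBS (0.346 ± 0.17), and every pair of neighbours in this order overlapped. The neighbours that did not overlap in whole liver nuclei were C26 cachexia (715 ± 219 CPM) above 8025 cachexia (314 ± 142), pre-cachexia (196 ± 160) above NC26 tumours (10.3 ± 5.61), and 8025 PBS (3.12 ± 1.38) above MC38 PBS. C26 PBS mice thus stood above NC26 tumour mice in mean Saa1 in hepatocyte nuclei and below them in whole liver nuclei.

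The genes around the cluster were taken by position, all those within 250 kb of it. There were 10, of which 8 were tested. On the side of Saa3 the nearest are Saal1, a gene named for its similarity to Saa1, and Tph1, tryptophan hydroxylase of serotonin synthesis, which did not pass the filter. Saal1 had 12.0 CPM in 8025 cachexia mice and 7.91 CPM in 8025 PBS mice in hepatocyte nuclei (log2 fold change 0.60, adjusted p = 0.045) and a log2FC of 0.56 in C26 cachexia (SE 0.23, adjusted p = 0.069). In whole liver nuclei Saal1 was called in both, at 0.56 in C26 cachexia (adjusted p = 0.014) and 0.63 in 8025 cachexia (adjusted p = 0.0039). On the side of Saa2 the nearest are Hps5, of a lysosome-related organelle complex, and Gtf2h1, a subunit of transcription factor TFIIH. Their log2 fold changes in cachexia lay between −0.11 and 0.05 in hepatocyte nuclei, beside 5.28 and 7.57 for Saa1.

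Of the 8 tested neighbours, 1 was called higher and 2 lower in C26 cachexia in hepatocyte nuclei, and 3 higher and 1 lower in 8025 cachexia, where 22.2% and 29.3% of all genes were called. Sergef rose in both (0.53, adjusted p = 0.0020, and 0.52, adjusted p = 0.0018). Ldha, lactate dehydrogenase A, rose in 8025 cachexia (58.1 CPM in cachexia mice against 32.1 CPM in PBS mice, log2 fold change 0.85, adjusted p = 0.012), and Tsg101, of the ESCRT sorting machinery, fell by 0.25 in C26 cachexia and 0.24 in 8025 cachexia. Spty2d1 fell in C26 cachexia (12.1 CPM in cachexia mice against 19.7 CPM in PBS mice, log2 fold change −0.71, adjusted p = 0.00031). In whole liver nuclei 2 of the 8 were called higher and 1 lower in C26 cachexia, and 3 higher and 1 lower in 8025 cachexia. Of all genes there, 22.1% and 36.6% were called. Tsg101 was not called there in C26 cachexia (−0.15, adjusted p = 0.2). The neighbours' fold changes in cachexia spanned −0.71 to 0.85, an interval that Saa1, Saa2 and Saa4 all lay above.

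**Figure D5:**
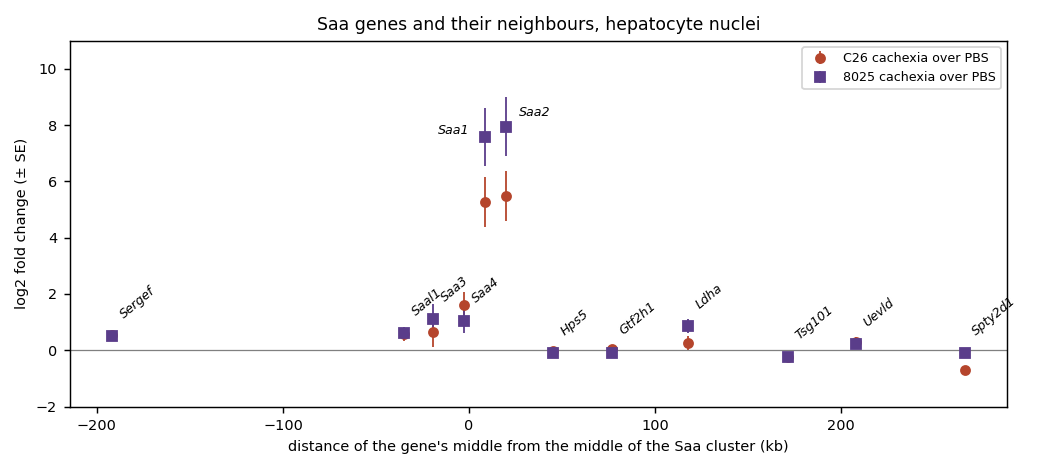
Log2 fold change in hepatocyte nuclei (y axis) against distance along chromosome 7 in kilobases (x axis) for the 4 Saa genes and their 8 tested neighbours, in C26 cachexia and 8025 cachexia. Saa1 and Saa2 stand at 5.28 to 7.94, Saa4 at 1.05 to 1.62, and the neighbours between −0.71 and 0.85.

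The genes of the pathway that induces serum amyloid A were counted from fixed lists in hepatocyte nuclei, beside a median log2 fold change near 0.00 over all genes. In that fraction 22.2% of all genes were called in C26 cachexia (12.2% as higher) and 29.3% in 8025 cachexia (16.2% as higher). Of 12 receptors of the inducing cytokines, 6 were called higher and 1 lower in C26 cachexia (median 0.72), and 5 higher and 2 lower in 8025 cachexia (median 0.67). Osmr, the oncostatin M receptor, had 54.9 ± 8.94 CPM in C26 cachexia mice and 4.10 ± 1.80 CPM in C26 PBS mice (log2 fold change 3.75, adjusted p = 8.7e-08). Il1r1, the signalling interleukin-1 receptor, had 3664 ± 649 CPM in C26 cachexia mice and 579.7 ± 115 CPM in PBS mice (log2 fold change 2.66, adjusted p = 1.1e-04). In 8025 cachexia Osmr rose by 5.0 and Il1r1 by 3.06 on the log2 scale, and Lifr, the leukaemia inhibitory factor receptor, fell to 179 CPM, against 1126 CPM in 8025 PBS mice.

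Of 21 signalling proteins and transcription factors, 3 were called higher and 1 lower in C26 cachexia (median 0.15), and 7 higher and 3 lower in 8025 cachexia (median 0.02). The 4 of 21 called in C26 cachexia are no larger a share than the 22.2% over all genes, and the share of 10 of 21 in 8025 cachexia stands beside 29.3%. Stat3 had 433 CPM in C26 cachexia mice and 141 CPM in C26 PBS mice (log2 fold change 1.62, adjusted p = 3e-07), and 460 CPM in 8025 cachexia mice and 156 CPM in 8025 PBS mice. Irak4, a kinase of the interleukin-1 pathway, rose by 1.06 and 0.80 in C26 and 8025 cachexia. Cebpa, a C/EBP factor of mature hepatocytes, fell to 12.5 CPM in C26 cachexia mice, against 28.7 CPM in PBS mice, and to 7.64 CPM in 8025 cachexia mice, against 24.5 CPM in PBS mice. Of 8 feedback inhibitors, 5 were called higher in C26 cachexia (median 0.78) and 6 in 8025 cachexia (median 1.28), and none was called lower, beside 12.2% and 16.2% of all genes called higher. Socs3, the inhibitor of STAT3 signalling, had 21.3 CPM in C26 cachexia mice and 3.28 CPM in PBS mice (log2 fold change 2.69, adjusted p = 9.3e-05) and rose by 3.41 in 8025 cachexia. The decoy receptor Il1r2 had 0.855 CPM in C26 cachexia mice and 0.0535 CPM in PBS mice, and rose by 3.95 and 5.21 in C26 and 8025 cachexia, and Tnfaip3, an inhibitor of NF-kB, by 1.17 and 1.92. A gene as low in PBS mice as Il1r2 can pass the filter through the cachexia groups alone. Its rise, and its part in the counts of feedback inhibitors, therefore say little by themselves.

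The cytokine ligands themselves were scarcely measurable in these nuclei, and 3 of 9 were tested. Il1b rose in 8025 cachexia (1.64 CPM against 0.141 CPM in PBS mice, log2 fold change 3.33, adjusted p = 1.3e-04), Il11 fell by 1.06 in C26 cachexia, and Il1a had fold changes of 0.01 and 0.34. Il1b, low in PBS mice, can likewise pass the filter through the cachexia group alone. With NC26 tumours, where 0.324% of all genes were called in hepatocyte and 0.728% in whole liver nuclei, Stat3 was the 1 member of the induction lists called in hepatocyte nuclei (log2 fold change 0.96, adjusted p = 0.013), while in whole liver nuclei Stat3 (0.99), Osmr (1.0) and Socs3 (1.98) were called. No member of these lists was called with MC38 tumours, where edgeR called 0% of all genes in both fractions, so this says nothing about the lists.

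Of 15 other proteins of high-density lipoprotein and its remodelling, 2 were called higher and 1 lower in C26 cachexia (median 0.09), and 3 higher and 3 lower in 8025 cachexia (median 0.27). The 3 of 15 called in C26 cachexia are a share near the 22.2% of all genes, and the 6 of 15 in 8025 cachexia stand beside 29.3%. Lipg, endothelial lipase, fell to 6.10 CPM in C26 cachexia mice, against 76.1 CPM in PBS mice (log2 fold change −3.64, adjusted p = 2.8e-06), and to 8.46 CPM in 8025 cachexia mice, against 47.9 CPM in PBS mice. Lcat, which esterifies cholesterol on the particle, rose by 0.76 in C26 cachexia, and the cholesterol exporter Abcg1 by 1.37 in 8025 cachexia. Of 9 receptors of serum amyloid A, 3 were called higher and 1 lower in C26 cachexia and 5 higher and 2 lower in 8025 cachexia, beside the same 22.2% and 29.3%. Cd36, a scavenger receptor, rose by 2.27 and 1.60, the endocytic receptor Lrp1 by 1.16 and 0.83, and Fpr1, a formyl peptide receptor of myeloid cells, had fold changes of 0.97 (adjusted p = 0.13) and 2.31 (adjusted p = 0.0024).

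Of 9 genes of amyloid deposits and turnover, 3 were called higher and 1 lower in C26 cachexia and 4 higher and 1 lower in 8025 cachexia, where 22.2% and 29.3% of all genes were called. Apcs, which codes for serum amyloid P component, an acute phase protein of the mouse found in amyloid deposits, had 55.3 CPM in C26 cachexia mice and 3.74 CPM in PBS mice (log2 fold change 3.89, adjusted p = 3.2e-07), and rose by 5.26 in 8025 cachexia. The lysosomal protease Ctsl had 146 CPM in C26 cachexia mice and 25.2 CPM in PBS mice and 98.0 CPM in 8025 cachexia mice and 24.9 CPM in PBS mice. Mmp14, a membrane metalloproteinase, rose by 2.11 and 1.58.

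The genes whose level followed each member most closely over the 36 libraries of a fraction were read from Spearman correlations of log2 CPM, given as a description of libraries that share groups and cohorts. In hepatocyte nuclei the genes most like Saa1 were Saa2 (0.969), Lcn2 (0.942), Mt2 (0.928), Mt1 (0.912) and Orm2 (0.908), and in whole liver nuclei Saa2 (0.956), Orm2 (0.955), Lcn2 (0.925), Il13ra1 (0.904) and Map3k8 (0.903). Lcn2 codes for lipocalin 2 and Orm2 for an alpha-1 acid glycoprotein, both acute phase proteins, and Mt1 and Mt2 for metallothioneins. As deviations from the group means, which leave out the differences between groups, Saa1 and Saa2 kept 0.886 in hepatocyte and 0.838 in whole liver nuclei, while the values of Saa1 with the other genes were lower, at 0.657 for Lcn2, 0.664 for Mt2, 0.584 for Mt1 and 0.618 for Orm2 in hepatocyte nuclei, and 0.614 for Orm2, 0.656 for Lcn2, 0.477 for Il13ra1 and 0.27 for Map3k8 in whole liver nuclei. For Saa2 the list held Saa1, Lcn2 (0.934), Orm2 (0.917), Mt2 (0.905) and Lrrc75a (0.896) in hepatocyte nuclei, and Saa1, Orm2 (0.934), Fgb (0.894), Prg4 (0.891) and Fgg (0.889) in whole liver nuclei, where Fgb and Fgg code for fibrinogen chains.

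Saa4 shared none of these leading genes. In hepatocyte nuclei Heatr6 (0.788), Dap (0.773), Abcd4 (0.764), Il1r1 (0.750) and Slc39a14 (0.741) came closest, and in whole liver nuclei Hecw2 (0.810), Cebpd (0.799), Tmem2 (0.777), Erp27 (0.772) and Gskip (0.766). The correlation of Saa4 with Saa1 was 0.534 in hepatocyte nuclei and 0.758 as deviations from the group means, and in whole liver nuclei 0.520 and 0.511. For Saa3 the values were lower, led by Mustn1 (0.692), H2-T10 (0.667), Zc3h12a (0.627), Rhoq (0.622) and Fbxo6 (0.618) in hepatocyte nuclei and by Hivep3 (0.703), Ndrg1 (0.698), Dnah1 (0.695) and Pdzrn3 (0.694) with 1 unnamed gene model in whole liver nuclei. As deviations from the group means these were 0.442 to 0.589 in hepatocyte nuclei and, for the 4 named genes, 0.211 to 0.489 in whole liver nuclei. The correlation of Saa3 with Saa1 in hepatocyte nuclei was 0.335, or −0.071 as deviations from the group means.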

How the data were processed

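The deposited table held whole-number counts of reads per gene, made by the authors, for 72 libraries of stranded total RNA read at 50 bases from both ends, with gene positions and counted lengths per the file headers (mm10). STAR 2.4.2a and DESeq2 1.24.0 stand without a role in the submitters' processing notes. The counting program, its strand setting and its treatment of reads with several matches are not given in the sources used here. Columns were matched to mice by the animal number in the labels, and all were assigned. No 2 libraries held identical values.

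The members and all gene lists were chosen with earlier results of these data known. Counts were analysed in R 4.3.3 with edgeR 4.0.16 (filterByExpr by group, TMM, quasi-likelihood F test, 1 term per group), each fraction on its 36 libraries, and both fractions jointly on 72 libraries and 14054 genes. DESeq2 1.42.0 was the alternative test. SE is the absolute log2 fold change over the square root of F, an approximation that is least sure for small differences and few counts. A mean ± SD is over mice. Deviations of both libraries of a mouse from their group means correlated over 0.1 in 35 of 36 mice (median 0.61), so the labels' animal number was taken to pair them, and the blocked value is printed where it changed a call. The exception was C26 PBS mouse 1 (−0.218), and C26 PBS mouse 4 had the next lowest value (0.176), so the pairing is less sure in that group. The permutation test used log2 ratios with 0.5 added to each count (scipy 1.17.1). The scripts were tested on simulated counts.

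Named were the 4 Saa genes, up to 3 members of each pathway list with the smallest p in cachexia in hepatocyte nuclei, the 2 nearest neighbours on each side with every neighbour called in cachexia, and the 5 genes most like each member. Unnamed gene models were not named. Counting error alone limits low values, most of all those of Saa3.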

Additional observations from a re-analysis of the deposited data

Results flagged for a closer look

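Of 72 groups of 4 mice checked for Saa1 to Saa4, 8 held a mouse that stood apart from the other 3, by a gap over Dixon's critical value. That value flags about 1 group in 20 when values are normal and groups independent. CPM need not be normal, and these groups share mice and linked genes, so the 8 cannot be set against that rate. In whole liver nuclei of C26 cachexia, mouse 3 stood above the others for Saa1 (1042 CPM) and Saa2 (1307 CPM). In hepatocyte nuclei of 8025 cachexia, mouse 3 stood below the others for Saa2 (70.5 CPM). MC38 tumour mouse 4 stood above its group for Saa1 in whole liver nuclei (8.41 CPM) and for Saa2 in hepatocyte nuclei (2.09 CPM), and NC26 tumour mouse 3 for Saa2 in hepatocyte nuclei (5.79 CPM). Among the controls, 8025 PBS mouse 4 was high (5.18 CPM) and MC38 PBS mouse 1 low (0.345 CPM) for Saa1 in whole liver nuclei. Their causes were not tested.

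All 3 called differences between tumour effects in one strain were those of the 8025 effect minus the MC38 effect. Their values were 4.91 for Saa1 in hepatocyte nuclei, 4.27 for Saa1 in whole liver nuclei and 5.48 for Saa2 in whole liver nuclei on the log2 scale. The 2 tumours also differ in their library number series, which cannot be told apart from the tumour.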

How the results depend on the processing

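The calls for Saa1 and Saa2 in C26 cachexia, 8025 cachexia and pre-cachexia were among the stable ones. So were those for Saa4 in C26 cachexia and for Saa3 in whole liver nuclei. All of these kept their direction and their side of the threshold under DESeq2, median-of-ratios scaling and no filter on low counts. The same held with the 5 genes with rRNA-like reads omitted and with each mouse omitted. Those for Saa1, Saa2 and Saa4 also kept both in the cohort's libraries alone. Genes were filtered anew in that fit, so Saa3, with its few counts, is left out of that statement. Under a replicate block of the cohort's libraries Saa2 in pre-cachexia in hepatocyte nuclei was not called (3.42, adjusted p = 0.0611). Causes of the changes below were not tested. Values are log2 differences.

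DESeq2 called 11 results that edgeR did not, and the values were 3.15 for the C26 minus NC26 difference of Saa1 in whole liver nuclei, 6.04 for the 8025 minus MC38 difference of Saa2 in hepatocyte nuclei, 1.93 for that of Saa3 in whole liver nuclei, 4.31 for Saa1 and 5.24 for Saa2 with NC26 tumours in hepatocyte nuclei, 1.08 and 1.01 for Saa4 in 8025 cachexia in hepatocyte and whole liver nuclei, 4.74 and 7.16 for Saa1 and Saa2 between C26 and NC26 PBS mice in hepatocyte nuclei, and 2.34 and 3.13 between 8025 and MC38 PBS mice in whole liver nuclei. In the cohort's libraries alone Saa1 and Saa2 in cachexia minus pre-cachexia lost their whole liver calls (1.91 and 2.24), while Saa1 with NC26 tumours in hepatocyte nuclei (4.30) and Saa4 in 8025 cachexia (1.06 and 1.01) were called. Replicate numbers do not pair mice across groups, since 7 of 24 pairs in hepatocyte and 3 of 24 in whole liver nuclei had a correlation of deviations over 0.1, and with them as a replicate block Saa1 with NC26 tumours (3.97) and Saa4 in 8025 cachexia (1.005 in hepatocyte and 0.95 in whole liver nuclei) were called. Summed counts of Saa1 and Saa2 gave calls for NC26 tumours (4.49) and for the 8025 minus MC38 difference (5.21) in hepatocyte nuclei.

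With the mouse as a replicate block, the fraction differences were −0.83 and −0.68 for Saa1 in C26 cachexia and pre-cachexia, −0.90 and −0.76 for Saa2, and 0.46 in 8025 cachexia, 0.26 in pre-cachexia, 0.34 with MC38 tumours, 0.19 with NC26 tumours and 0.255 in PBS mice for Saa4. The difference of effects between fractions was −2.29 for Saa2 in C26 cachexia and 0.004 for Saa4 with MC38 tumours. The fraction difference of Saa1 in pre-cachexia, 0.03 in the joint fit, was −0.051 in DESeq2, −0.053 under median-of-ratios scaling and −0.028 with no filter, where the MC38 difference of effects for Saa4 was 0.013. The strain difference in the C26 and 8025 cohorts was 2.47 for Saa1, 2.94 for Saa2 and 0.22 for Saa3 in hepatocyte nuclei, and in the NC26 and MC38 cohorts −0.89, −1.52 and −0.22 for Saa1, Saa2 and Saa4 in hepatocyte nuclei and −0.046, −0.41 and −0.059 in whole liver nuclei. With 1 added to each count, the log2 ratio of Saa2 to Saa1 with NC26 tumours in whole liver nuclei was −0.027.

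Leaving out each mouse in turn gave these lowest and highest values where a call or a sign changed. The 8025 minus MC38 difference of effects gave 4.56 to 6.32 for Saa1 in hepatocyte nuclei, 5.12 to 7.06 for Saa2 in hepatocyte nuclei, 5.22 to 6.07 for Saa2 in whole liver nuclei and 1.60 to 2.19 for Saa3 in whole liver nuclei. The C26 cachexia minus NC26 difference gave 2.91 to 3.77 for Saa1 in whole liver nuclei, −0.75 to 1.40 for Saa2 in hepatocyte nuclei, −0.97 to 0.13 for Saa3 in hepatocyte nuclei and 1.78 to 2.39 for Saa3 in whole liver nuclei. The pre-cachexia minus NC26 difference gave −0.66 to 0.72 for Saa1 in hepatocyte nuclei, −2.15 to 0.012 for Saa2 in hepatocyte nuclei, −0.50 to 0.60 for Saa3 in hepatocyte nuclei and −0.003 to 0.63 for Saa4 in whole liver nuclei. The fraction difference in pre-cachexia gave −0.23 to 0.12 for Saa1 and −0.31 to 0.015 for Saa2. The fraction difference in PBS mice gave −0.20 to 0.19 for Saa1. The difference of tumour effects between fractions gave −0.005 to 0.47 for Saa1 with MC38 tumours, −0.17 to 0.62 for Saa1 with NC26 tumours, −0.13 to 1.83 for Saa2 with NC26 tumours, −0.073 to 0.18 for Saa4 with C26 tumours, −0.054 to 0.024 for Saa4 with MC38 tumours and −0.058 to 0.026 for Saa4 with NC26 tumours. C26 minus NC26 PBS mice gave 2.34 to 3.19 for Saa1 in whole liver nuclei, 6.52 to 8.12 for Saa2 in hepatocyte nuclei and −0.053 to 0.092 for Saa4 in whole liver nuclei. The strains gave −0.035 to 0.45 for Saa1 in whole liver nuclei, −0.12 to 0.39 for Saa2 in whole liver nuclei and −0.035 to 0.38 for Saa4 in hepatocyte nuclei. Cachexia minus pre-cachexia gave 1.58 to 2.38 for Saa1 in whole liver nuclei, 1.89 to 3.03 for Saa2 in whole liver nuclei and −0.097 to 0.20 for Saa3 in whole liver nuclei. NC26 tumours gave 3.48 to 4.61 for Saa1 in hepatocyte nuclei, 4.11 to 4.88 for Saa2 in whole liver nuclei and −0.40 to 0.21 for Saa3 in whole liver nuclei. The fraction difference with MC38 tumours gave −0.32 to 0.65 for Saa2. The fraction difference in C26 cachexia gave −0.46 to 0.046 for Saa3. MC38 tumours gave −0.12 to 0.46 for Saa3 in hepatocyte nuclei and −0.003 to 0.999 for Saa4 in hepatocyte nuclei. 8025 cachexia gave 0.84 to 1.23 for Saa4 in whole liver nuclei. The log2 ratio of Saa2 to Saa1 gave −0.14 to 0.23 for 8025 cachexia in whole liver nuclei, −0.67 to 0.29 for MC38 tumours in hepatocyte nuclei and −0.28 to 0.48 for NC26 tumours in whole liver nuclei.

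Saa3 rests on 0 to 72 counts a library and Saa2 on 6 counts in all in NC26 PBS hepatocyte nuclei, which limits both.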
